A study of Mus musculus with 12 samples.

Results

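The surface marker genes of mesenchymal stem cells (MSCs) studied here were Pdgfra, Ly6a, Thy1, Eng, Nt5e, Cd44, Itgb1, Itgav, Mcam and Cd34. All regions of H3K27ac or H3K27me3 that overlapped the gene body of 1 of these 10 genes, or the 20 kb on either side of it, were taken. This gave 25 of 31617 H3K27ac regions, at all 10 genes, and 8 of 28047 H3K27me3 regions, at 6 genes. The libraries came from MSCs of young mice aged 3 to 5 months and old mice aged 18 to 22 months. Both ages were grown at 2% oxygen throughout, and the cells of each sample were divided between the antibodies against the 2 marks. The 12 libraries formed 4 groups of 3, young and old for each mark, and the comparison was between old and young within a mark. The labels gave neither the strain of the mice, nor how the cells were sorted, nor whether the replicates were separate animals, so p-values measured only the spread between these samples.

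MSCs are stromal cells of the bone that can form bone, cartilage and fat. They have no single marker of their own and are recognised by combinations of surface proteins, among them the growth factor receptor PDGFRα, the small membrane anchored proteins Sca-1 and Thy-1, the TGF-β co-receptor endoglin, the nucleotidase CD73 and adhesion molecules such as CD44 and the integrins. Acetylation of lysine 27 of histone H3 (H3K27ac) is found at active promoters and enhancers, whereas trimethylation of the same residue (H3K27me3) is deposited by the Polycomb repressive complex at silent or poised genes. CUT&RUN measures such a mark by tethering a nuclease to an antibody in permeabilised cells and sequencing the DNA that is released. The signal of a region is the number of its reads relative to library size. It is scaled here by the median of ratios between the libraries of a mark, and it is given per kb of region wherever genes are compared with each other.

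Library sizes inferred from the signal, taken as per 0.5 kb, were 2750953 to 5541429 reads for H3K27ac and 3622108 to 9947515 for H3K27me3. Old replicate 2 was the shallowest library for both marks. The regions at the surface marker genes held 3 to 981 H3K27ac reads and 6 to 272 H3K27me3 reads in a library, so small regions were measured less precisely than large ones. Log2 signals of replicates correlated across regions at 0.921 to 0.955 for H3K27ac and at 0.966 to 0.986 for H3K27me3. Between young and old libraries the values were 0.904 to 0.951 and 0.955 to 0.98. As these signals were not divided by region length, differences in length enter all of these correlations.

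To ask whether the stromal identity of the cells was visible in their chromatin, the start sites were examined first. All 10 surface marker genes had a H3K27ac region within 1 kb of a transcription start site (TSS), and 53.7% of 21924 protein-coding genes did. At Pdgfra, Ly6a, Thy1, Eng, Cd44, Itgb1 and Itgav the start site lay in a H3K27ac region only. At Nt5e, Mcam and Cd34 it lay in regions of both marks, as was the case for 1974 protein-coding genes (9%). None of the 10 had H3K27me3 alone, which 24.9% of protein-coding genes had. These shares describe a chosen list and were not tested.

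The same inspection was made for other gene lists. Of 27 other stromal surface genes, 16 had H3K27ac only, 6 both marks (Alcam, Cd200, Lepr, Cspg4, Fap and Cdh11), 4 H3K27me3 only (Ngfr, Icam1, Dpp4 and Itga4) and 1 neither (Itgb3). All 8 mesenchymal matrix and regulator genes, among them Prrx1, Twist1, Col1a1 and Vim, had a H3K27ac region at the start site, and Twist2 had H3K27me3 as well. Of 16 surface genes of blood, endothelial and epithelial cells, 3 had H3K27ac at the start site. These were Cd14 of monocytes, Itga2b of megakaryocytes and Pecam1 of endothelium, whose region lay at an alternative start inside the gene and not at its outermost start. The pan-leukocyte gene Ptprc, the macrophage gene Adgre1 and the B cell gene Cd79a had neither mark, and 10 others, including Itgam, Cd3e, Cdh5, Kdr and Epcam, had H3K27me3 only. The summed H3K27ac signal of the 3 start site regions was 77.6 to 98.1 in young and 87.1 to 93.6 in old libraries, so the ages overlapped. This sum came mainly from the Itga2b region, which was 35.5 kb long and also covered the start of 1 other gene. The regions of Cd14 and Pecam1 were 3 and 2.5 kb long, so the sum says little about them. Taken singly, each of the 3 regions also overlapped between the ages. In bulk libraries fewer cells of a type and less signal per cell cannot be told apart.

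**Figure D1:**
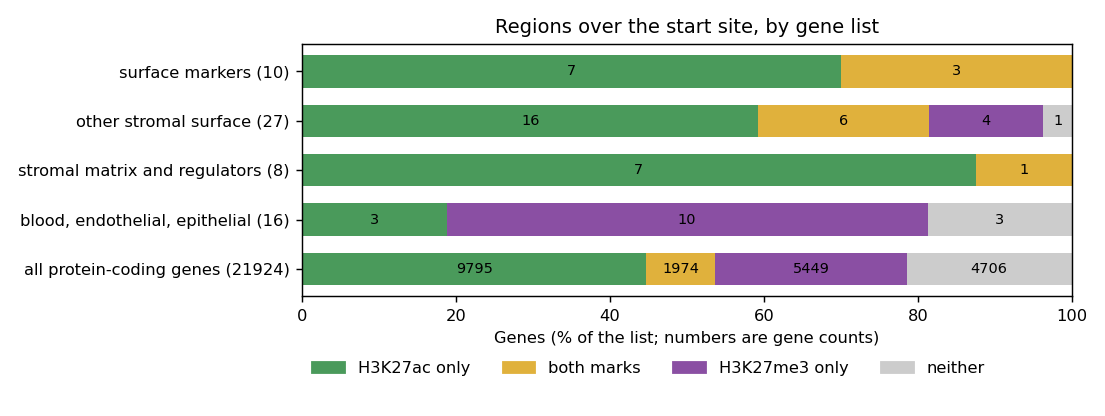
Share of each gene list (x axis, %) whose start site lay in a region of H3K27ac only, both marks, H3K27me3 only or neither; numbers in the bars are gene counts. The surface markers split into 7 with H3K27ac only and 3 with both marks, and 10 of the 16 genes of other cell types had H3K27me3 only.

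The promoters of the genes with both marks are shown beside 2 with H3K27ac only, to compare their CpG content. CpG dinucleotides are in capitals, and the sequences are from RefSeq on GRCm38.p6, 5′ to 3′ on the strand of the gene, up to 250 bases before the start. Of the 10 genes, 8 had an entry in the promoter table, and Ly6a and Thy1 did not. Where the GENCODE gene began earlier than the RefSeq start, only the bases before the GENCODE gene are printed, which left 61 bases of Mcam, 248 of Cd34 and none of Nt5e.
Mcam, chr9:44134408-44134468, plus strand: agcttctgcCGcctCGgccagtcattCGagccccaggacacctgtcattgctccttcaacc
Cd34, chr1:194938571-194938818, plus strand: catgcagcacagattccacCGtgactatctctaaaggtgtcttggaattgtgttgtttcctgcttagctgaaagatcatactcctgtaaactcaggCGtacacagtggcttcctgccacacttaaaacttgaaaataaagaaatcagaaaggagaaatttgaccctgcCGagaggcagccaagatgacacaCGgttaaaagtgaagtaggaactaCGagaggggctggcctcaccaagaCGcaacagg
Pdgfra, chr5:75152001-75152250, plus strand: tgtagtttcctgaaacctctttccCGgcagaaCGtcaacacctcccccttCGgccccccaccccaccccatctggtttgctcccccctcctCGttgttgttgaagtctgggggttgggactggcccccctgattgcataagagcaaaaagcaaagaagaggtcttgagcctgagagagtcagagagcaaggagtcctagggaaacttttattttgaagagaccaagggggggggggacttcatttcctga
Itgb1, chr8:128685404-128685653, plus strand: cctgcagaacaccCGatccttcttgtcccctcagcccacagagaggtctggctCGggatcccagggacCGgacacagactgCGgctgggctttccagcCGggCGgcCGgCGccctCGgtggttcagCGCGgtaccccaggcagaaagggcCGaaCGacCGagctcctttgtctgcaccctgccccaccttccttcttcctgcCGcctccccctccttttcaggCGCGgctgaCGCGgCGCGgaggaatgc
All 8 of these 250-base windows lay inside a H3K27ac region. CpG numbers in the windows were 25 for Mcam, 21 for Nt5e and 6 for Cd34, and, with H3K27ac only, 21 for Itgb1, 18 for Itgav, 5 for Cd44, 4 for Pdgfra and 4 for Eng. The median of 32851 promoters was 6. Of the genes with both marks, 2 lay above this median and Cd34 at it. Those with H3K27ac only lay on either side of it. The 2 above it were Nt5e and Mcam, whose windows lay wholly and mostly inside the GENCODE gene. Of the 25 CpG in the Mcam window, 3 lay before that gene. The letters GGGCGG on either strand occurred in 3 of the 8 windows (Nt5e, Itgb1 and Mcam) and in 32.7% of all promoters of this length. The letters TATAAA and CCAAT, on either strand, occurred in 0 of the 8, and in 12.4% and 33.8% of all promoters.

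**Figure D2:**
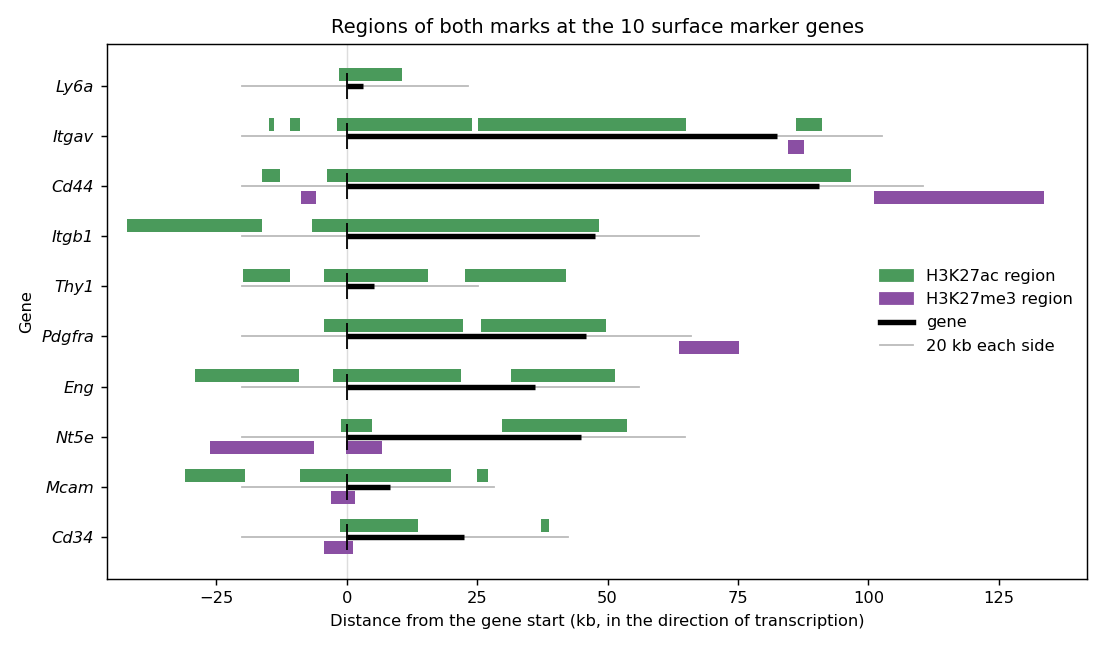
Regions of H3K27ac (green) and H3K27me3 (purple) at each gene (black bar; grey line, 20 kb on either side), by distance from the gene start in kb along the direction of transcription. The start of every gene lay under a H3K27ac region, the largest of which covered Cd44 over 100.5 kb, and regions of H3K27me3 reached the start of Nt5e, Mcam and Cd34.

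The 25 H3K27ac regions comprised 10 at a start site, 4 inside a gene, 7 upstream and 4 downstream. Their median length was 20 kb, against 4 kb for all H3K27ac regions. All 25, and all 8 H3K27me3 regions, were listed by the authors as present in both old and young cells, as were 99.2% and 96.9% of all regions of the 2 marks. Some belonged to more than 1 gene. The upstream region of Eng also covered the start of Ak1, the region at its end that of Fpgs, the downstream region of Thy1 that of Usp2, the downstream region of Itgav that of Fam171b, and the upstream region of Mcam those of C1qtnf5, Gm49380 and Rnf26.

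Levels of H3K27ac at the start site differed between the genes. Ly6a, which encodes Sca-1, had the highest mean signal per kb, 4.26 ± 0.278 (SD, n = 3) in young and 3.93 ± 0.481 in old cells. Its percentile rank among the 8885 start site regions averaged 97.2 over the 3 young libraries. Ly6a belongs to a family of closely related neighbouring genes, and reads that match more than 1 copy make its level less certain. Then followed the integrin subunit Itgav (3.37 in young, 3.26 in old), the hyaluronan receptor Cd44 (3.03 and 3.02), the integrin subunit Itgb1 (2.9 and 2.88), Thy1 (2.69 and 2.85) and the growth factor receptor Pdgfra (2.64 and 2.65). The median of all start site regions was 2.32 in young and 2.35 in old cells. Below it in both ages lay Eng (1.93 and 2.29), Nt5e (1.61 and 2.19), the melanoma cell adhesion molecule Mcam (1.48 and 1.81) and the sialomucin Cd34 (1.44 and 1.52). Every gene's range over the 6 libraries overlapped that of the next gene in this order. Within each of the 6 libraries, however, Ly6a lay above Itgav and Itgav above Cd44. The other neighbouring pairs changed places in some libraries. These differences between genes were not tested. The signal per kb averages over regions of 6 kb at Nt5e to 100.5 kb at Cd44.

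**Figure D3:**
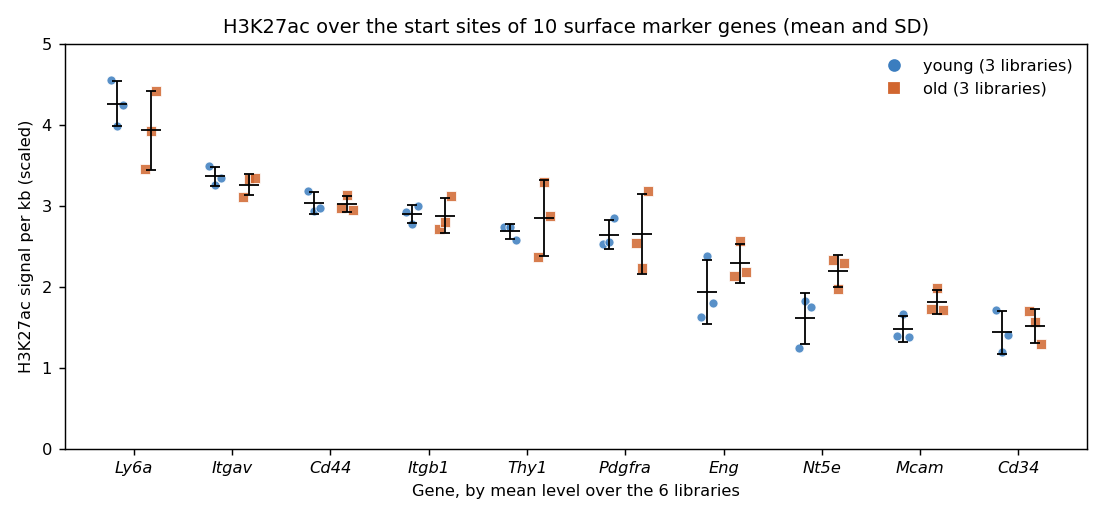
H3K27ac signal per kb (scaled, y axis) of the start site region of each gene in 3 young (blue circles) and 3 old libraries (orange squares), with mean and SD in black; genes are ordered by mean level. Old libraries all lay above the young ones at Nt5e and Mcam, and overlapped them at the other 8 genes.

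No region at a surface marker gene was called between old and young at an adjusted p-value under 0.05 with limma. Of the 25 H3K27ac regions, 0 were called, where 0.0822% of all H3K27ac regions were. At an unadjusted p-value under 0.05 stood 2 of the 25, against 9.6% of all regions. On the recovered reads edgeR called 0, against 0.304%, with 3 at an unadjusted p-value under 0.05, against 9.56%. DESeq2 gave an adjusted p-value for 6 of the 25, none of them at Mcam, Nt5e or Cd34, and called 0 of these, against 0.214% of the 2807 regions with such a value. Log2 fold changes of old over young were positive in 14 regions and negative in 11. They ranged from -0.46 to 0.84, with a median of 0.00 beside -0.00 for all regions. These values are relative to the typical region: on the signal as deposited, without scaling, the median was -0.11 beside -0.12 for all H3K27ac regions, and 8 regions were positive and 17 negative. In 4 regions all old libraries lay above all young ones and in 0 below, against 14.5% of all regions in either direction. These 4 were the start sites of Nt5e and Mcam and a downstream region each of Mcam and Cd34. On the signal as deposited, 2 of them, the Mcam start site and the Cd34 downstream region, were still without overlap.

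At Pdgfra, the growth factor receptor by which bone MSCs are commonly recognised, old and young libraries overlapped in both H3K27ac regions. The Pdgfra start site region (chromosome 5, 75148001 to 75174500) had a signal of 67, 67.5 and 75.6 in young replicates 1 to 3 and of 67.4, 59 and 84.6 in old replicates 1 to 3. The old libraries held both the lowest and the highest value, and the log2 fold change was -0.01 (95% interval -0.25 to 0.23). The region over the 3′ part of Pdgfra had 48.3, 47.9 and 45.1 in young and 49.4, 46.4 and 45.9 in old libraries, an interval of -0.25 to 0.26. A fold change beyond these bounds, in either direction, lay outside the 95% intervals of both regions.

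At Ly6a a single region (chromosome 15, 74987501 to 74999500) spanned the gene, with 54.6, 47.9 and 51 in young and 41.5, 47.2 and 53 in old libraries. Of the old values 2 lay below all young ones, and the log2 fold change was -0.12 (interval -0.38 to 0.14, limma adjusted p = 0.826). It was -0.03 without old replicate 1, -0.07 without young replicate 1 and -0.20 without old replicate 3. Thy1, whose product is used as a stromal and a T cell marker, had 54.9, 54.8 and 51.6 in young and 47.4, 66.1 and 57.6 in old libraries over its start site. Here too the spread was wider in old libraries, whereas at the start sites of Eng, Nt5e, Cd44, Mcam and Cd34 it was wider in young ones. The log2 fold change at the Thy1 start site was 0.07 (interval -0.19 to 0.33). Summed over its 3 regions, Thy1 was 106, 100 and 101 in young and 110, 115 and 107 in old libraries. All old sums lay above the young ones, with a log2 fold change of 0.11 and an interval of -0.08 to 0.30.

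Of the start site regions, those of 3 adhesion genes gave the narrowest intervals. The Cd44 region (chromosome 2, 102805001 to 102905500), which covered the whole gene, had 320, 295 and 299 in young and 300, 315 and 296 in old libraries. The log2 fold change was -0.00 and its interval ran from -0.13 to 0.12. Itgb1, the β1 subunit shared by most fibronectin and collagen receptors, had 161, 153 and 165 in young and 149, 154 and 172 in old libraries (interval -0.18 to 0.15). Itgav, which pairs with several β subunits to bind vitronectin, had 90.8, 84.8 and 87.2 in young and 80.9, 86.5 and 87.1 in old libraries at its start site (interval -0.25 to 0.16). The ages overlapped at all 3 genes. The lowest log2 fold change among the H3K27ac regions, -0.46, was that of a 1 kb region upstream of Itgav that held 3 to 12 reads per library, and its interval was correspondingly wide (-1.42 to 0.51).

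The start site regions with the highest log2 fold changes were those of Nt5e, Mcam and Eng. Mcam encodes CD146, a marker of perivascular stromal and endothelial cells. Its start site region (chromosome 9, 44125501 to 44154500) had 40.2, 48.5 and 40.1 in young and 50.2, 57.4 and 49.9 in old libraries. All old values exceeded all young ones, also on the signal as deposited, and the log2 fold change was 0.29 (SE 0.13, interval 0.03 to 0.56). The unadjusted p-value was 0.0326 and the limma adjusted p was 0.469, so the region was not called. When single libraries were left out, the log2 fold change ranged from 0.23 to 0.38 and the unadjusted p from 0.0133 to 0.115.

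Nt5e encodes CD73, which produces adenosine at the cell surface. Its start site region (chromosome 9, 88326001 to 88332000), with 15 to 35 reads per library, had 7.51, 11 and 10.5 in young and 14, 11.8 and 13.8 in old libraries. The groups did not overlap after scaling, although they did on the signal as deposited, and the log2 fold change was 0.44 (interval -0.05 to 0.93, limma adjusted p = 0.577). Without young replicate 1, the lowest library, it was 0.28. The region over the 3′ part of Nt5e pointed the other way, with 43.4, 49.6 and 43.1 in young and 34.3, 49.5 and 35.7 in old libraries and a log2 fold change of -0.20 (interval -0.50 to 0.09). The difference was not called, and without old replicate 2 it was -0.37.

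Eng encodes endoglin. Its start site region had 39.9, 58.3 and 44.1 in young and 52.2, 62.9 and 53.5 in old libraries. The groups overlapped through young replicate 2, without which the log2 fold change rose from 0.26 (interval -0.02 to 0.53) to 0.41. With it the limma adjusted p was 0.557 and without it 0.414. Without young replicate 1 the log2 fold change was 0.14.

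Cd34, a gene of blood progenitors and endothelium that is also found on murine stromal cells, had 25.8, 17.9 and 21 in young and 25.5, 23.6 and 19.4 in old libraries at its start site (log2 fold change 0.09, interval -0.29 to 0.46). The highest log2 fold change of the 25 regions, 0.84, was that of a 1.5 kb region downstream of Cd34 (chromosome 1, 194976001 to 194977500). It had 2.61, 3.46 and 2.96 in young and 4.38, 7.08 and 6.12 in old libraries, which did not overlap. As each library held only 6 to 12 reads there, the interval was 0.09 to 1.59, with an unadjusted p of 0.0297 and a limma adjusted p of 0.458. A 2 kb region downstream of Mcam with 5 to 14 reads did not overlap after scaling but did on the signal as deposited (log2 fold change 0.55, interval -0.23 to 1.34).

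Across the 10 start site regions, the 4 genes with the lowest mean H3K27ac per kb (Cd34, Mcam, Nt5e and Eng) were also those with the 4 highest log2 fold changes, 0.09 to 0.44. The place of Cd34 rested on single libraries: without old replicate 1 it was at 0.002 and Thy1 at 0.20, and without young replicate 2 they were at -0.04 and 0.08. Without old replicate 2 Pdgfra stood in its place. The rank correlation of level and log2 fold change was -0.855 over these 10 regions, whose values came from the same 6 libraries, and ranged from -0.915 to -0.612 when 1 library was left out of the fold change. Over all 8885 start site regions it was -0.0894. This is a description of the chosen genes and carries no test.

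**Figure D4:**
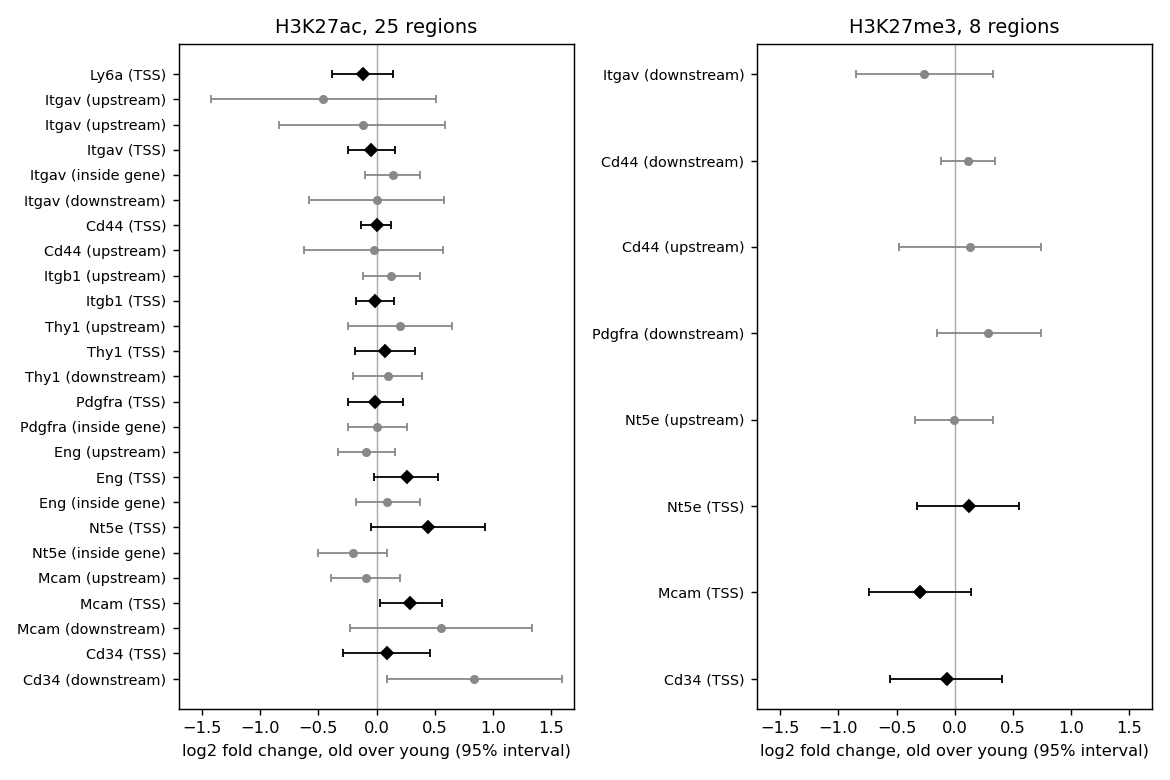
Log2 fold change of old over young (x axis) with its 95% interval from limma for the 25 H3K27ac (left) and 8 H3K27me3 regions (right); black diamonds are start site regions and grey circles other positions. The intervals of 2 regions, at the Mcam start site and downstream of Cd34, exclude 0 before adjustment, and no H3K27me3 interval does.

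To see whether silencing marks had spread to these genes with age, H3K27me3 was examined in the same way. No H3K27me3 region lay at Ly6a, Thy1, Eng or Itgb1 or within 20 kb of them. At Pdgfra, Cd44 and Itgav, H3K27me3 lay outside the gene: downstream of Pdgfra and Itgav and on both sides of Cd44. The median length of the 8 regions was 6.25 kb, against 10.5 kb for all H3K27me3 regions. Of the 8, limma called 0, against 0.488% of all regions, and edgeR called 0, against 1.35%. None had an unadjusted p-value under 0.05 with either tool (13.9% of all regions with limma, 14% with edgeR). DESeq2 gave an adjusted p-value for 1 of the 8, at Cd44, and did not call it, against 0.897% of the 8472 regions with such a value. In none of the 8 were old and young without overlap (19.1% of all regions). The log2 fold changes ranged from -0.30 to 0.29 with a median of 0.05, beside -0.01 for all regions, and were positive in 4 regions and negative in 4. On the signal as deposited the median was -0.07 beside -0.13 for all H3K27me3 regions, with 3 positive and 5 negative.

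At the 3 genes with both marks, the H3K27me3 regions were short and overlapped the H3K27ac region. The whole 4.5 kb H3K27me3 region of Mcam lay inside its H3K27ac region, and the shared stretch was 5 kb at Nt5e and 2.5 kb at Cd34. At Mcam, H3K27me3 was 11.7, 8.25 and 10.7 in young and 7.86, 9.67 and 6.97 in old libraries. Of the old libraries 2 lay below all young ones, and the log2 fold change was -0.30 (interval -0.74 to 0.14, limma adjusted p = 0.556). At Nt5e it was 8.69, 9.66 and 10.2 in young and 8.51, 13.6 and 9.51 in old libraries (log2 fold change 0.12, interval -0.32 to 0.55). The value of old replicate 2 stood above the others, and without it the log2 fold change was -0.07. At Cd34 it was 5.53, 7.04 and 7.32 in young and 7.2, 6.26 and 5.39 in old libraries (log2 fold change -0.07, interval -0.56 to 0.41). Per kb, H3K27me3 at the start site was 1.36 ± 0.109 at Nt5e, 2.27 ± 0.391 at Mcam and 1.21 ± 0.175 at Cd34 in young cells (SD, n = 3), with a median of 2.07 over all start site regions of this mark. Whether both marks lay on the same molecules or in different cells cannot be told from separate libraries.

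**Figure D5:**
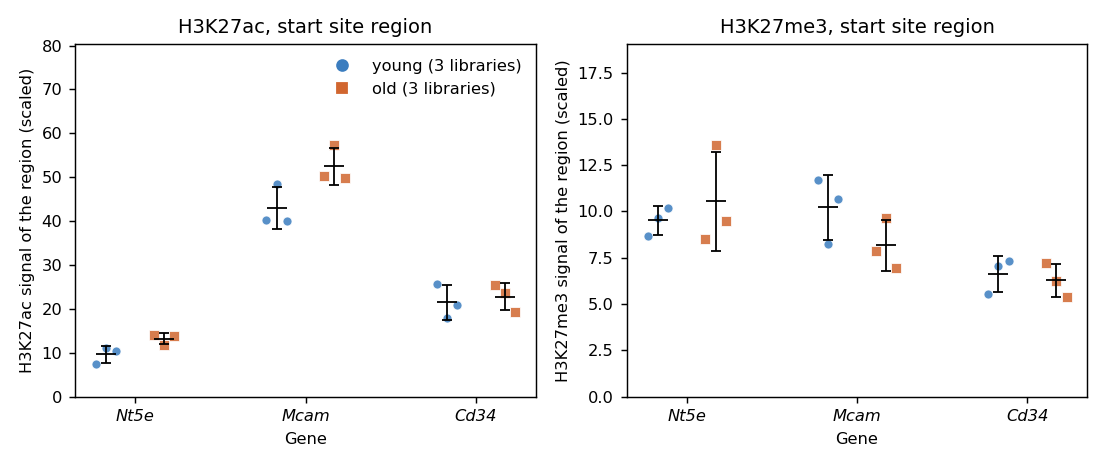
Scaled signal (y axis) of the start site regions of Nt5e, Mcam and Cd34 for H3K27ac (left) and H3K27me3 (right) in 3 young (blue circles) and 3 old libraries (orange squares), with mean and SD in black. After scaling, H3K27ac was higher in all old libraries at Nt5e and Mcam, and H3K27me3 overlapped between the ages at all 3 genes.

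Outside the start sites, the region downstream of Pdgfra had the highest H3K27me3 log2 fold change, 0.29 (interval -0.15 to 0.74). Its signal was 11.7, 12.5 and 12.6 in young and 13.5, 22.7 and 11.1 in old libraries, so that the difference rested on old replicate 2, without which it was 0.01. The 20 kb region upstream of Nt5e had 27.1, 27.8 and 28 in young and 21.8, 37 and 25.7 in old libraries, again with old replicate 2 highest, and a log2 fold change of -0.01. The largest region, 32.5 kb downstream of Cd44, had 50, 54.7 and 48.6 in young and 53.5, 61.4 and 51.4 in old libraries (log2 fold change 0.11, interval -0.12 to 0.35), and without old replicate 2 the log2 fold change was 0.04. Smaller regions upstream of Cd44 and downstream of Itgav had 7 to 24 and 6 to 33 reads per library and intervals of -0.48 to 0.74 and -0.85 to 0.33.

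The signal was also summed over all regions of a gene. For H3K27ac, 0 of the 10 genes were called by limma, against 0.53% of 15854 genes with a region, and the unadjusted p-value was under 0.05 for 0 (10.9% of genes). The old and young sums of 1 gene, Thy1, did not overlap, against 15.6% of genes. The log2 fold changes ranged from -0.12 at Ly6a to 0.22 at Cd34, with a median of 0.02 beside 0.03 for all genes. For H3K27me3, 0 of the 6 genes with a region were called, against 0.394% of 15242, and for 0 was the unadjusted p-value under 0.05 (14.5% of genes). None was without overlap, against 19.7% of genes, and the median log2 fold change was -0.02 beside -0.04.

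Other stromal surface genes were compared between the ages as well. Of the 22 with a H3K27ac region at the start site, 0 were called by limma and 2 had an unadjusted p-value under 0.05, against 9.6% of all H3K27ac regions, both named here after their values were seen. Itga5, the fibronectin receptor subunit, had a log2 fold change of 0.23 (limma adjusted p = 0.264) and the collagen receptor subunit Itga1 one of -0.30 (adjusted p = 0.394). The Itga5 region also covered the start of 1 other gene and the Itga1 region those of 2. The median over the 22 was 0.01. The highest young levels per kb were those of the tetraspanins Cd63 (4.69) and Cd9 (3.77) and of the adhesion molecule Vcam1 (3.83). The region of Cd63 lay at an alternative start inside the gene and also covered the starts of 2 other genes. The lowest levels were those of Alcam (1.57), Ly6c1 (1.68) and Bst2 (1.71). By young means alone, Ly6a thus ranked between Cd63 and Vcam1, and Cd34 and Mcam below Alcam. The places of Alcam and Bst2 are uncertain, as their regions were only 1.5 and 2 kb long. Their young SDs were 0.947 and 0.73, and their old levels 2.62 and 2.47. At the 8 mesenchymal matrix and regulator genes limma called 0 H3K27ac start site regions. An unadjusted p-value under 0.05 was found for 2, against 9.6% of all regions. These were Twist2 (log2 fold change 0.54) and Col1a1 (0.17), each with an adjusted p of 0.501. For H3K27me3, limma called 0 of the 10 start site regions of other cell types. Their median log2 fold change was -0.16, beside -0.06 for all start site regions of this mark.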

How the data were processed

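The authors performed CUT&RUN and deposited 1 table per mark with a signal for every region and library, named RPKM. The submitters' processing notes name Bowtie2, Picard and mm10; the region caller is not given in the sources used here. The deposited signal was not divided by region length: 100% of values in the 12 columns were whole multiples (tolerance 0.01 read) of the smallest value of the column, taken as 1 read. That it was relative to total reads and a constant 0.5 kb was assumed, and the library sizes rest on this. Signals were scaled by median ratios (RLE), log2(signal + 0.5) was fitted with limma 3.58.1 (trend, robust, no filter, no block), and p-values were adjusted by Benjamini-Hochberg over all regions, or all genes for sums; tests were two-sided. This fold change understates changes at few reads. RLE assumes that the typical region is unaltered. Genes were from GENCODE vM21 basic (GRCm38). edgeR 4.0.16 and DESeq2 1.42.0 on recovered reads were alternatives. All 10 genes are named whatever their p-value, with their start site regions, called regions and the region of smallest p; of the other stromal surface genes, those called, the 3 highest and 3 lowest at the start site and those without a region. Genes and lists were chosen with earlier results of these data known. The publication supplied describes other experiments and guided style only. No use was made of the yeast spike-in.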

Additional observations from a re-analysis of the deposited data

How the results depend on the processing

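The number of called member regions and of called gene sums stayed at 0 for both marks under every alternative run, but not every member was tested in each: DESeq2 gave an adjusted p for 6 of 25 H3K27ac and 1 of 8 H3K27me3 regions and for 10 of 10 and 3 of 6 gene sums, and with the lower quartile left out 21 and 5 regions remained. Over all regions, the H3K27ac count of 26 (10 higher and 16 lower in old cells) became 105 on the signal as deposited (16 higher, 89 lower), 14 and 63 with pseudocounts of 0.1 and 2, 0 for limma without trend and robust moderation (2661 at an unadjusted p under 0.05), 96 with edgeR, 6 with DESeq2 and 2 to 45 with 1 library left out (2 and 10 without young replicates 1 and 3, 45 and 4 without old replicates 1 and 2). The H3K27me3 count of 137 (23 higher, 114 lower) became, in this order, 774 (21 higher, 753 lower), 71 (pseudocount 0.1), 81 (lower quartile left out), 35, 380, 76 and 10 to 313, with 12, 17 and 10 without young replicates 1 to 3 and 313 without old replicate 2. The replicate block gave 81 and 309, and changed no call at the surface marker genes. Deviations of same-numbered libraries from their group means correlated at -0.0542 to 0.0656 (H3K27ac) and -0.0777 to 0.0434 (H3K27me3). With 3 libraries per group these values neither show nor exclude a pairing by number. The causes were not tested. On the signal as deposited the median H3K27ac log2 fold change of the member regions was -0.11, and with a flank of 5 kb that of H3K27me3 was -0.17.

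Of 33 member regions, 17 kept their sign under all alternatives. None of the other 16 was called. On the signal as deposited the sign turned for H3K27ac at Pdgfra region 2 (-0.11), Thy1 regions 2 (-0.05) and 3 (-0.02), Eng region 3 (-0.03), Itgav region 5 (-0.11) and Cd34 region 1 (-0.03), and for H3K27me3 at Cd44 region 1 (-0.01), with regions numbered along the chromosome. With edgeR and DESeq2 it turned at Pdgfra region 1 (0.02 and 0.01) and Itgav region 5 (-0.03 and -0.01), and with edgeR at Cd44 region 2 (0.01). With 1 library left out, H3K27ac ranged from -0.15 to 0.11 and -0.03 to 0.02 at Pdgfra regions 1 and 2, -0.04 to 0.20 and -0.01 to 0.15 at Thy1 regions 2 and 3, -0.18 to 0.03 and -0.03 to 0.16 at Eng regions 1 and 3, -0.03 to 0.03 and -0.14 to 0.07 at Cd44 regions 1 and 2, -0.07 to 0.03 at Itgb1 region 2, -0.14 to 0.17 at Itgav region 5 and -0.04 to 0.22 at Cd34 region 1. H3K27me3 ranged from -0.21 to 0.16 and -0.07 to 0.25 at Nt5e regions 1 and 2, -0.03 to 0.32 at Cd44 region 2 and -0.19 to 0.03 at Cd34 region 1. Regions of few reads limit what could be seen at the smallest regions.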
